A study of Aedes albopictus with 6 samples.

Results

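The genes described here are those of the cell cycle, of meiosis and of DNA replication in the Asian tiger mosquito, *Aedes albopictus*, measured in its ovaries. They were chosen by their descriptions in the deposited table, by names such as cyclin, cyclin-dependent kinase, aurora kinase, anaphase-promoting complex, DNA replication licensing factor, origin recognition complex, replication factor C and terms that begin with "meio". The rule matched 135 rows, of which 6 were blank in all libraries, and so it gave 129 genes among the 23529 with values. The rule uses no measured value. Ovaries with Aalpi18529 overexpression (OE, 3 libraries) were compared with control ovaries (NC, 3 libraries). Aalpi18529 is named as a PIWI-interacting RNA (piRNA) of this species. Per the series' design text it was given as a mimic, and the question was its effect on how the ovary develops after a blood meal. The sources used here do not state the strain, mosquito age, time after the meal, number of females per library or what the control received, and Aalpi18529 itself was not measured here. Since nothing states that libraries of a group came from separate females, the p-values measure only the spread between these libraries, which may be technical.

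Cyclins are subunits that switch on cyclin-dependent kinases (CDKs), and different pairs drive DNA synthesis and mitosis, while others act in transcription. The anaphase-promoting complex marks mitotic cyclins for destruction, and the origin recognition complex loads the MCM helicase so that each origin fires once per cycle. In the well-studied ovary of Drosophila, which also has nurse cells, the oocyte arrests in meiosis, nurse cells copy their DNA without dividing, and follicle cells change from mitotic cycles to DNA copying without division. A whole ovary holds all of these cells, so fewer cells of a type and less RNA per cell cannot be told apart.

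The libraries held 15719412 to 16465531 estimated counts each, and the 129 genes took 0.923% to 0.997% of them. Scaling factors by the trimmed mean of M values lay between 0.991 and 1.01. Levels are given as CPM, counts scaled to a common library total by those factors. They are not corrected for gene length, so they are compared between libraries and not between genes. Germ line RNA was abundant in both groups: the 18 genes named after vasa, nanos, tudor, oskar or germ cell-less summed to 7912 to 8007 CPM in OE and to 7590 to 7918 CPM in NC, and none of the 18 was at 0.

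Of the 129 genes, 119 had enough counts to be tested (edgeR quasi-likelihood test over 15540 genes, Benjamini-Hochberg adjustment). None of the 119 passed an adjusted p of 0.05, where 0.0129% of all genes tested did, and the adjusted p-values of the 119 ran from 0.963 to 0.998. DESeq2 called none of them either, where it called 0.0652% of the genes it tested. At an unadjusted p under 0.05 there were 2 by DESeq2, of 128 with a p-value, and its share over all genes was not computed. By edgeR there were 3, where the share over all genes was 4.92%. Of the 3, 2 were higher and 1 lower in OE, where 2.42% of all genes were higher and 2.50% lower. The count of 3 became 7 without NC3, 2 without OE1, OE2 or NC1, and 1 without OE3 or NC2. The genes counted also changed. Of the 3, only LOC109416161 remained without OE1, LOC115257199 without NC1 and LOC115259611 without NC3. None of the 3 remained without OE2, OE3 or NC2. The shares over all genes were not computed for these fits. The groups did not overlap in 3 genes, where they did not in 10.4% of all genes. In these 3 all OE libraries lay above all NC libraries, and in 0 all lay below, where the shares over all genes were 5.25% and 5.12%. The differences were small. The log2 fold changes (OE minus NC) had a median of -0.01, against 0.00 over all genes tested, with 54 above 0 and 65 below. Their median size was 0.08, against 0.10 over all genes, and 82 of the 119 were under 0.1 in size, a share of 68.9% where all genes gave 50.6%. In 100 of the 119 the 95% interval of the difference lay within a 1.5-fold change in either direction, a share of 84.0% where all genes tested gave 63.7%. These genes also had more counts than most, with a median of 46.1 CPM against 21.4 CPM over all genes tested, and the part of that depth in the widths was not tested. Of the 119, 8 had a log2 fold change over 0.3 in size, where 2359 of the 15540 genes tested did.

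**Figure D1:**
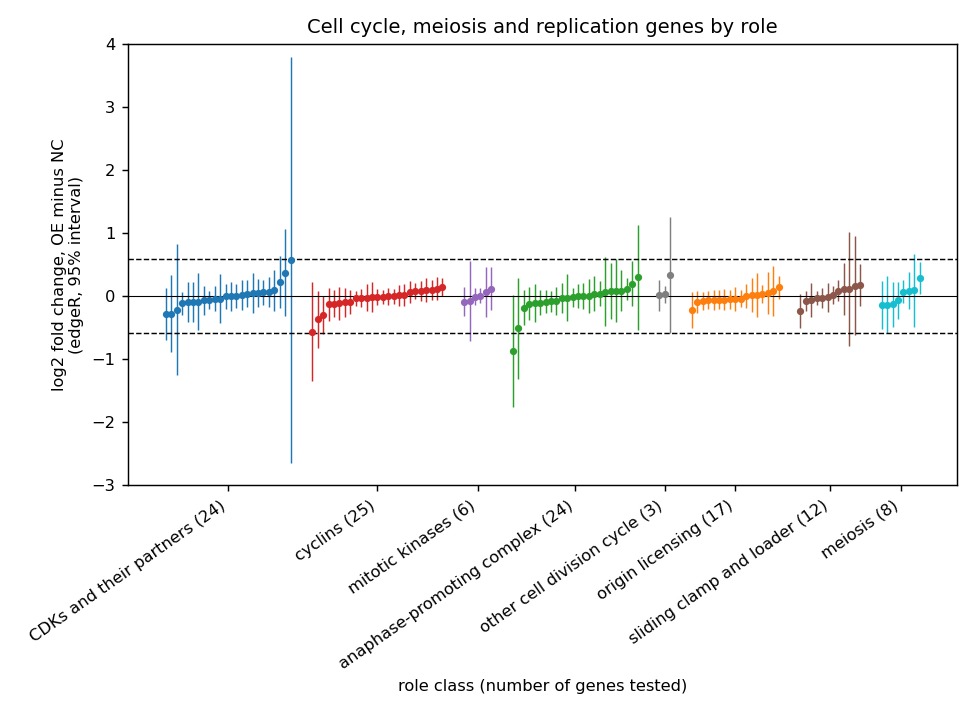
Each point is the log2 fold change (OE minus NC) of a tested gene with its 95% interval from the edgeR fit, sorted within its role class; dashed lines mark a 1.5-fold change. The points of all 8 classes lie around 0, with the widest interval in a cyclin-dependent kinase 10-like copy (log2 fold change 0.58).

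The engine of mitosis was measured at nearly the same level in both groups. CDK1, the mitotic kinase, has 2 rows. Its copy with more counts, LOC109429567 (scaffold NW_021837378.1, positions 4994103 to 4995404), had 63.1, 75.1 and 67.2 CPM in OE1, OE2 and OE3, against 64.7, 62.9 and 69.8 CPM in NC1, NC2 and NC3. The groups overlapped, with a log2 fold change of 0.06 ± 0.08 (SE) and an interval from 0.91-fold to 1.19-fold. The other copy, LOC109429984, averaged 45.9 ± 9.19 CPM in OE and 43.0 ± 3.97 CPM in NC (SD, n = 3). The CDK2-like gene with more counts, LOC115266510, had 37.9, 32.3 and 28.3 CPM in OE libraries, against 35.8, 29.7 and 39.5 CPM in NC libraries, again overlapping. CDK2 has 3 rows, of which 2 were tested. This row lay at a log2 fold change of -0.09 and the other tested row at 0.37. The sum over the CDK2 rows lay at 0.01 ± 0.10 (SE). CDK2 drives entry into DNA synthesis in animal cells.

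Of the mitotic cyclins, cyclin B took the most counts of any gene in the cyclin class. Its copy LOC115270215 (cyclin-B-like) had 656, 660 and 583 CPM in OE1 to OE3, against 628, 640 and 648 CPM in NC1 to NC3. OE3 was the lowest of the 6 libraries, while OE1 and OE2 were the highest. The log2 fold change was -0.01 ± 0.06 (SE), an interval from 0.91-fold to 1.08-fold. The second copy, LOC115270245, had 395, 477 and 410 CPM in OE, against 393, 417 and 370 CPM in NC, and the sum of both had a log2 fold change of 0.04 ± 0.05 (SE). Cyclin B3, a cyclin of late mitosis and female meiosis in Drosophila, had 492, 497 and 527 CPM in OE (LOC109415630), against 508, 543 and 502 CPM in NC. Its log2 fold change was -0.04 ± 0.05 (SE). The 2 cyclin A rows, LOC109426019 and LOC115268031, averaged 172 ± 7.65 and 191 ± 30.7 CPM in OE, against 175 ± 10.6 and 194 ± 8.49 CPM in NC (SD, n = 3). In the second of them OE2 stood apart at 226 CPM, above a range of 170 to 203 CPM in the other libraries. Cyclin D, the partner of CDK4 in growth, was also level. LOC109426400 averaged 41.6 ± 2.50 CPM in OE and 39.0 ± 2.14 CPM in NC, and LOC109428421 averaged 56.1 ± 1.48 CPM in OE and 55.5 ± 3.95 CPM in NC (SD, n = 3). CDK4 itself (LOC109406441) averaged 38.0 ± 4.09 and 36.8 ± 1.78 CPM in OE and NC. No cyclin E gene was analysed here.

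**Figure D2:**
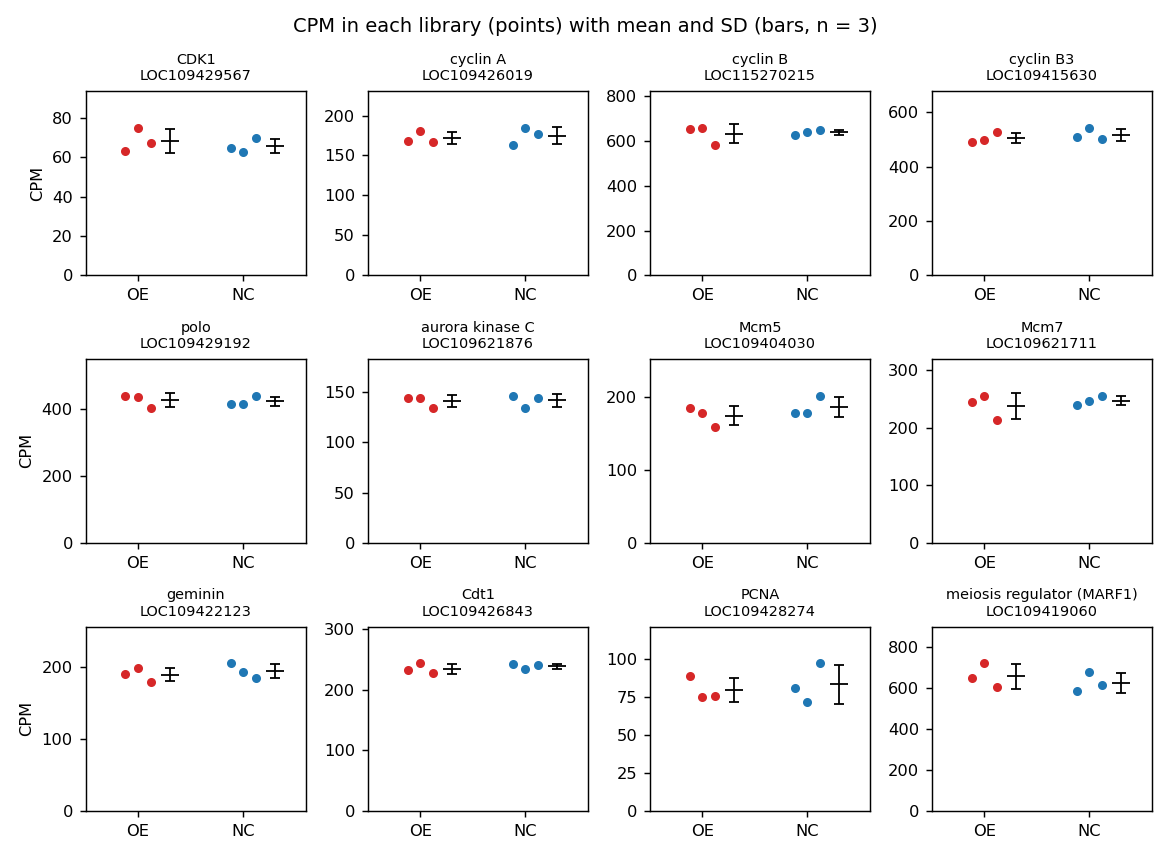
CPM (vertical axes from 0) of 12 genes of the mitotic engine, of replication licensing and of meiosis in the 3 OE and the 3 NC libraries, with mean and SD. The groups overlap in each of the 12 panels, and OE3 is the lowest library for cyclin B, polo, Mcm5, Mcm7, geminin and Cdt1.

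The other CDKs and cyclins act mostly in transcription and splicing, and their known pairs are given together. CDK9 and cyclin T form the elongation factor P-TEFb. CDK9 (LOC109417667) averaged 56.7 ± 5.2 CPM in OE and 56.8 ± 5.71 CPM in NC, and the larger cyclin T row (LOC115270152) averaged 202 ± 5.59 and 202 ± 5.85 CPM (SD, n = 3). CDK12 had the most counts of the CDK class. It had 215, 211 and 213 CPM in OE, against 211, 239 and 217 CPM in NC (LOC109623260), and NC2 was the highest library. Its partner cyclin K (LOC109424428) averaged 87.5 ± 3.38 CPM in OE and 81.8 ± 5.17 CPM in NC (SD, n = 3). CDK7 and cyclin H, which activate other CDKs, had log2 fold changes of 0.07 ± 0.10 and 0.01 ± 0.07 (SE). Cyclin C, the CDK8 partner in the Mediator complex, had a log2 fold change of -0.12 ± 0.09 (SE), with 52.6 to 58.4 CPM in OE and 52.5 to 64.4 CPM in NC. The CDK regulatory subunit, the small protein that binds mitotic CDKs, has 3 rows. Its row LOC109429585 had 104, 128 and 107 CPM in OE, against 116, 110 and 112 CPM in NC. The 3 rows had log2 fold changes from -0.29 to 0.22, and their sum lay at 0.00 ± 0.07 (SE). The row described as CDK inhibitor 1C-like, LOC109425848, varied widely within groups, with 3.06 to 11.6 CPM in OE and 5.79 to 12.4 CPM in NC. In the CDK class as a whole, 24 of 31 genes were tested, 0 had an unadjusted p under 0.05, and 11 lay above 0 and 13 below. In the cyclin class 25 of 26 were tested, 2 had an unadjusted p under 0.05, and 9 lay above 0 and 16 below. That class also holds 7 rows caught by the wording of the rule that are not cyclins, among them calcyclin-binding protein and the clathrin-uncoating kinase named cyclin-G-associated kinase. The 19 cyclins proper had a median log2 fold change of -0.01.

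Those 2 cyclins had the smallest p-values of the class. Cyclin J, a cyclin of the Drosophila germ line, has 2 rows. LOC115257199 (scaffold NW_021838865.1, positions 818617 to 819999) had 79.7, 77.5 and 76.6 CPM in OE, against 72.8, 70.2 and 68.7 CPM in NC. All OE libraries lay above all NC libraries. By edgeR this was a log2 fold change of 0.14 ± 0.06 (SE; unadjusted p 0.0444, adjusted p 0.963). The other row, LOC109414160, had 24.6, 27.9 and 28.8 CPM in OE, against 31.2, 27.5 and 28.1 CPM in NC. Summed over both rows, cyclin J had 104, 105 and 105 CPM in OE, against 104, 97.7 and 96.8 CPM in NC, with a log2 fold change of 0.08 ± 0.05 (SE). The sums did not overlap, narrowly, at 104.38 CPM in OE1 against 104.05 CPM in NC1. Cyclin L, a partner of CDK11 in splicing, was measured in LOC115259611 (scaffold NW_021839130.1, positions 329356 to 329962) at 15.1, 15.7 and 16.9 CPM in OE, against 19.6, 22.3 and 16.9 CPM in NC. OE3 and NC3 were close to each other, so the groups overlapped. By edgeR this was a log2 fold change of -0.30 ± 0.13 (SE; unadjusted p 0.0482, adjusted p 0.963). The cyclin-L2-like gene LOC109623098 averaged 192 ± 3.29 CPM in OE and 193 ± 2.93 CPM in NC (SD, n = 3).

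Polo and the aurora kinases organise the spindle and chromosome segregation. Polo had 440, 436 and 402 CPM in OE, against 417, 415 and 438 CPM in NC (LOC109429192, scaffold NW_021837267.1, positions 24218082 to 24250667). Its log2 fold change was 0.01 ± 0.05 (SE), and the interval ran from 0.93-fold to 1.09-fold. The aurora kinase C row with more counts, LOC109621876, had 144, 144 and 134 CPM in OE, against 146, 134 and 144 CPM in NC. Aurora kinase B rows varied more. LOC115267000 had 82.4, 85.5 and 66.2 CPM in OE, against 79.3, 82.0 and 87.6 CPM in NC, and OE3 was the lowest library. LOC109423204 had 36.0, 28.9 and 29.7 CPM in OE, against 34.1, 22.4 and 34.0 CPM in NC, and there NC2 was the lowest. Of the 6 mitotic kinase genes, 3 lay above 0 and 3 below, and none had an unadjusted p under 0.05.

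The anaphase-promoting complex and its activator CDC20 were represented by 24 genes, all tested. Of these, 11 lay above 0 and 13 below, and 0 had an unadjusted p under 0.05 in the main edgeR fit. The subunit CDC27 took the most counts, and its row LOC109407831 had 141, 121 and 146 CPM in OE, against 137, 159 and 141 CPM in NC. Its second row, LOC109410161, averaged 82.7 ± 5.75 CPM in OE and 76.4 ± 4.09 CPM in NC (SD, n = 3), and the summed log2 fold change was -0.02 ± 0.06 (SE). CDC20 averaged 132 ± 8.57 CPM in OE and 141 ± 11.2 CPM in NC in its row LOC109429671 (SD, n = 3). The largest difference of all 119 genes below 0 was in an APC7 row, LOC109416162 (scaffold NW_021837267.1, positions 54298689 to 54302148), named after its values were seen. It had 6.18, 2.11 and 3.34 CPM in OE, against 4.65, 7.72 and 8.96 CPM in NC. OE1 lay above NC1, so the groups overlapped, and the edgeR log2 fold change was -0.88 ± 0.39 (SE; unadjusted p 0.0529). Its unadjusted p was 0.0267 by DESeq2 and 0.0341 by edgeR with no filter, and neither fit called it. The edgeR log2 fold change was also refitted with a library left out. Without OE1 it was -1.38 and without NC1 it was -1.10 (unadjusted p 0.00439 and 0.0246, adjusted p 0.998 and 0.950, edgeR). With any other library left out, its unadjusted p was not under 0.05. APC7 has 3 rows, and their sum was 70.6, 72.1 and 69.4 CPM in OE, against 77.7, 76.5 and 76.0 CPM in NC. The sums did not overlap, with an edgeR log2 fold change of -0.12 ± 0.05 (SE; unadjusted p 0.0445, adjusted p 0.951). The share of all summed features without overlap was not computed. The 3 remaining genes with "cell division cycle" in the name act elsewhere, for example CDC5-like, a splicing factor, at 71.5 ± 1.07 CPM in OE and 70.2 ± 1.49 CPM in NC (LOC109406867; SD, n = 3).

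Origin licensing differed little between groups. All 17 genes were tested, 7 lay above 0 and 10 below, 0 had an unadjusted p under 0.05, and in each of the 17 the 95% interval lay within a 1.5-fold change. Mcm7, a helicase subunit with the most counts of the class, had 245, 254 and 213 CPM in OE, against 239, 246 and 256 CPM in NC (LOC109621711). Mcm5 had 185, 179 and 160 CPM in OE, against 179, 178 and 202 CPM in NC (LOC109404030). Mcm3 had 109, 122 and 99.2 CPM in OE, against 110, 112 and 119 CPM in NC (LOC109405758). In all 3 genes OE3 was the lowest library and the groups overlapped. The log2 fold changes were -0.06 ± 0.07, -0.10 ± 0.08 and -0.04 ± 0.08 (SE) for Mcm7, Mcm5 and Mcm3. Mcm2, Mcm4 and Mcm6 have 2 rows each. The Mcm2 rows lay on opposite sides of 0. LOC109417346 had 84.1, 96.2 and 70.0 CPM in OE, against 88.1, 92.9 and 111 CPM in NC, a log2 fold change of -0.22 ± 0.13 (SE). LOC109398867 had 48.8, 52.9 and 46.3 CPM in OE, against 42.9, 44.6 and 47.1 CPM in NC, a log2 fold change of 0.14 ± 0.08 (SE). Summed, Mcm2 stood at 133 ± 16.4 CPM in OE and 142 ± 14.0 CPM in NC (SD, n = 3). The Mcm4 rows averaged 138 ± 4.2 CPM (LOC109430667) and 88.8 ± 15.2 CPM (LOC115270238) in OE, against 145 ± 8.33 and 87.4 ± 15.4 CPM in NC. The Mcm6 rows averaged 35.5 ± 4.44 CPM (LOC109428276) and 29.0 ± 5.08 CPM (LOC109427956) in OE, against 33.5 ± 8.21 and 28.0 ± 3.41 CPM in NC. The 7 origin recognition complex rows, for subunits 1 to 6, had log2 fold changes from -0.06 to 0.03. The brakes and loaders of licensing were level too. Geminin, which blocks relicensing, had 191, 198 and 180 CPM in OE, against 205, 194 and 186 CPM in NC (LOC109422123). Cdt1, the loader that geminin inhibits, had 233, 243 and 227 CPM in OE, against 242, 233 and 240 CPM in NC (LOC109426843).

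The MCM genes varied between libraries of a group. Summed over their 9 rows, MCM2 to MCM7 stood at 977, 1007 and 855 CPM in OE1, OE2 and OE3, against 944, 955 and 1050 CPM in NC1, NC2 and NC3. The median deviation of the 9 rows from their 6-library mean was -0.17 on the log2 scale in OE3 and 0.15 in NC3, and lay between -0.02 and 0.07 in the other 4 libraries. In the licensing class OE3 was the lowest library for 7 of 17 genes, 41.2% where the share over all genes tested was 16.8%. Among the mitotic kinases the median deviation was -0.08 in OE3 and 0.09 in NC3, whereas in the anaphase-promoting complex it was 0.00 and 0.04. The median log2 fold change of the MCM rows was -0.04 with all libraries. It was 0.03 without OE3, and from -0.10 to -0.01 without any 1 of the other libraries. The summed germ line genes stood at 8007, 7944 and 7912 CPM in OE1 to OE3, against 7918, 7769 and 7590 CPM in NC1 to NC3. The eggshell and follicle cell genes had their lowest sum, 6201 CPM, in OE3. The part of these lists in the MCM values was not tested.

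**Figure D3:**
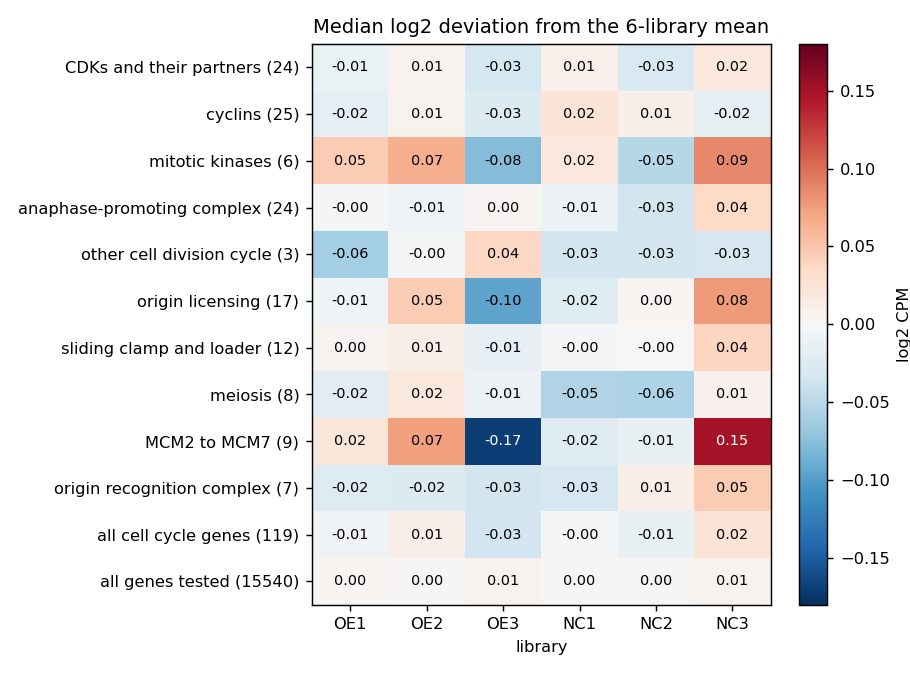
Median deviation of log2 CPM from each gene's mean over the 6 libraries (colour and number), for each role class, for the MCM and origin recognition genes, for all 119 tested cell cycle genes and for all genes tested. The MCM row is lowest in OE3 (-0.17) and highest in NC3 (0.15), whereas all genes tested stay within 0.01 of 0.

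At the replication fork, PCNA is the sliding clamp and replication factor C loads it. PCNA has 3 rows with values, and all lay on scaffold NW_021838233.1. LOC109428274 (positions 18960084 to 18961040) had 88.6, 75.0 and 75.3 CPM in OE, against 80.9, 71.8 and 96.9 CPM in NC. LOC109427955 (positions 19120638 to 19121818) averaged 63.4 ± 14.2 CPM in OE and 56.3 ± 3.88 CPM in NC (SD, n = 3). The third, LOC115266344 (positions 12030936 to 12032128), had 5.53, 17.8 and 16.4 CPM in OE, against 14.4, 13.9 and 8.63 CPM in NC. The sum of the 3 rows was 147, 172 and 149 CPM in OE, against 149, 146 and 160 CPM in NC, with a log2 fold change of 0.04 ± 0.07 (SE). The loader subunits 2 and 5, with a single row each, had log2 fold changes of -0.08 ± 0.07 and 0.02 ± 0.06 (SE). Replication factor C subunit 1 has 2 rows with overlapping positions on scaffold NW_021837045.1 (45816756 to 45838218 and 45816960 to 46291453), so the values of each are uncertain. They lay at -0.24 ± 0.12 (SE) and 0.09 ± 0.07 (SE), and their sum at -0.03 ± 0.04 (SE). The class, which by its wording also holds Cdt1, had 6 of its 12 tested genes above 0 and 6 below.

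Of the 9 meiosis genes 8 were tested, and 4 lay above 0 and 4 below. The gene with the most counts was meiosis regulator and mRNA stability factor 1 (MARF1), an RNA-binding protein needed for meiosis in mouse oocytes. It had 649, 722 and 605 CPM in OE, against 586, 678 and 615 CPM in NC (LOC109419060), and OE2 and NC2 were the highest libraries of their groups. Its log2 fold change was 0.07 ± 0.08 (SE). SPO11, the enzyme that makes the DNA breaks of meiotic recombination, has 2 rows with overlapping positions on scaffold NW_021838935.1. LOC115258121 had 5.16 to 6.41 CPM in OE and 5.67 to 6.71 CPM in NC. Meiosis-specific nuclear structural protein 1, a structural protein of mouse sperm, has 3 rows, and their sum was 38.0, 37.5 and 42.2 CPM in OE, against 41.2, 41.6 and 41.2 CPM in NC. The second SPO11 row, LOC115258120, held 13.74 estimated counts in OE2 and 0 in the other 5 libraries, and was not tested. The smallest p-value of all 119 genes belonged to LOC109416161 (scaffold NW_021837267.1, positions 52427204 to 52430235), described as required for meiotic nuclear division protein 1, a mitochondrial protein in human cells. It had 24.5, 29.3 and 30.8 CPM in OE, against 23.3, 23.2 and 22.8 CPM in NC. All OE libraries lay above all NC libraries, although OE1 was close to NC. By edgeR this was a log2 fold change of 0.29 ± 0.11 (SE; unadjusted p 0.0285, adjusted p 0.963). Its second row, LOC109404993, had 12.7 to 15.4 CPM in OE and 12.8 to 17.9 CPM in NC. The sum of both averaged 42.2 ± 3.97 CPM in OE and 38.4 ± 2.36 CPM in NC (SD, n = 3), with a log2 fold change of 0.13 ± 0.09 (SE).

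The remaining gene with no overlap between groups was a CDK2-associated protein 2 row, LOC109404455, named after its values were seen. It had 7.68, 7.40 and 7.43 CPM in OE, against 7.24, 7.31 and 7.21 CPM in NC, a log2 fold change of 0.05 ± 0.14 (SE). The 10 genes that the filter on low counts left out of this fit held at most 28.01 estimated counts over the 6 libraries, against at least 73 for a tested gene. They included 3 CDK20 rows, 2 rows of the CDK5 activator and 1 CDK11B-like row. With no filter edgeR called 0 of the 129. Whether a difference in the 10 could be detected at these low counts was not tested.

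Many of these genes are present more than once in the deposited annotation. After a closing "-like" was removed from the descriptions, 94 of the 129 rows fell into 42 families of 2 or more, and 35 were single. Whole-number estimates in all libraries were found for 41 of the 129. The other estimates carry decimals, and the counting that gave them is not stated in the sources. Tested rows with whole estimates had a median within-group SD of 0.08 on the log2 CPM scale, against 0.15 for rows with decimals. Over all genes tested the medians were 0.11 and 0.17. Rows with whole estimates also had more counts, with a median of 80.0 CPM against 39.3 CPM. Over all genes tested these medians were 33.5 and 18.7 CPM. The part of depth in these SDs was not tested. In the 37 families with at least 2 tested copies, the sum had a smaller within-group SD than the median copy in 35, with medians of 0.07 and 0.16 on the log2 scale. Sums of independent values also vary less in proportion. The variance of the summed CPM was smaller than the sum of the copies' variances in 24 of the 37 and larger in 13. The ratio had a median of 0.616 and ran from 0.0244 to 1.89, and whether copies varied independently was not tested. Copies lay on opposite sides of 0 in 24 of the 37 families.

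The clearest example was CDK10, which pairs with cyclin Q. Both copies lie on scaffold NW_021838153.1, LOC109406061 at positions 56088375 to 56090009 and LOC115265364 at positions 55489961 to 55491495. The second had 16.8, 0 and 18.2 CPM in OE, against 0, 1.81 and 21.5 CPM in NC. The first had 114, 126 and 107 CPM in OE, against 125, 125 and 107 CPM in NC, and was low where the second was high. Their sum was nearly constant, at 131, 126 and 125 CPM in OE, against 125, 127 and 128 CPM in NC. The second copy had the highest fitted log2 fold change of the 119 genes, 0.58 ± 1.41 (SE), while the sum had 0.01 ± 0.04 (SE). Whether the copies are separate genes was not tested.

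**Figure D4:**
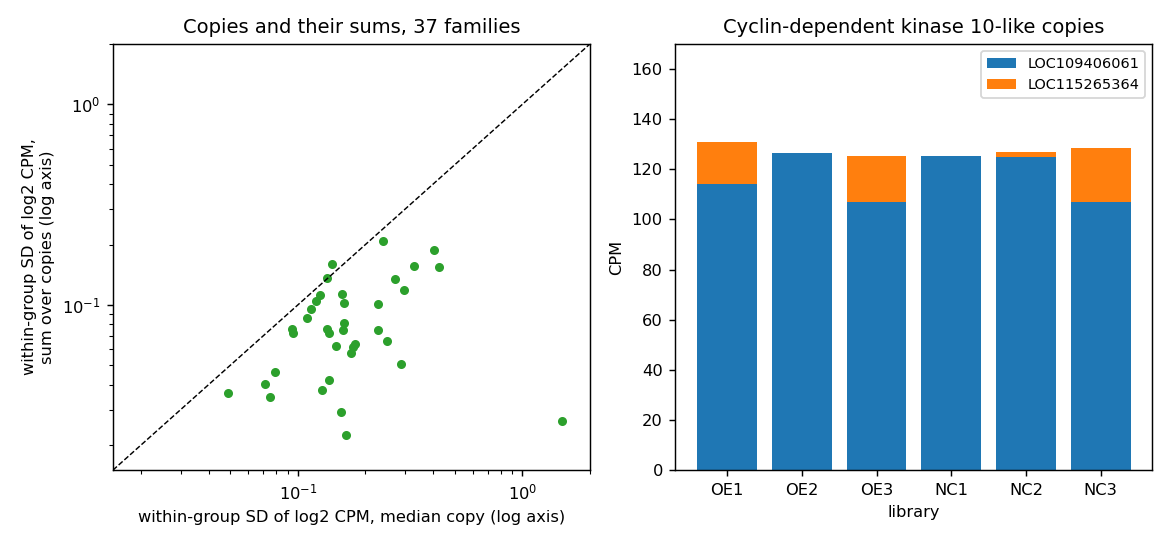
Left, within-group SD of log2 CPM of the sum over copies against that of the median copy for 37 families (both axes logarithmic; the dashed line marks equality); 35 points lie below the line. Right, CPM of the 2 cyclin-dependent kinase 10-like copies stacked by library; the total stays between 125 and 131 CPM while LOC115265364 ranges from 0 to 21.5 CPM.

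With the copies summed, an alternative chosen after seeing the data, none of the 37 families passed an adjusted p of 0.05, where 0.0103% of all 9691 summed features did. By edgeR 2 of the 37 had an unadjusted p under 0.05, a share of 5.41% that lay close to the 5.07% of all summed features. In each of the 37 the 95% interval lay within a 1.5-fold change, and the log2 fold changes ran from -0.19 to 0.17. Of 74 summed features of the group, single rows included, 5 did not overlap between OE and NC. The share over all summed features was not computed, and over all genes tested without summing it was 10.4%. The 5 included cyclin J, APC7, CDK14 and CDC16. CDC16 had 63.5, 63.7 and 64.9 CPM in OE, against 72.3, 66.8 and 69.7 CPM in NC, a log2 fold change of -0.12 ± 0.06 (SE). The family with the smallest p-value was CDK14, a kinase that binds cyclin Y at the membrane. Its sum was 144, 149 and 152 CPM in OE, against 160, 159 and 161 CPM in NC, so the groups did not overlap. By edgeR this was a log2 fold change of -0.11 ± 0.04 (SE; unadjusted p 0.0270, adjusted p 0.951). Its copies taken singly (LOC109430891 and LOC115263167) overlapped between groups, at log2 fold changes of -0.12 ± 0.08 and -0.09 ± 0.14 (SE). Cyclin Y itself averaged 131 ± 5.28 CPM in OE and 131 ± 6.18 CPM in NC in LOC109622838 (SD, n = 3).

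Members of some families lay near each other at more than 1 place, in differing order. On scaffold NW_021838576.1, an origin recognition complex subunit 1 gene (positions 56787357 to 56811128), cyclin B (57390796 to 57406328) and MCM4 (57578389 to 57585345) lay in 1 stretch. Second copies of all 3 lay farther along, MCM4 at 60939219 to 60948389, subunit 1 at 60953954 to 60970594 and cyclin B at 61107162 to 61127083. On NW_021838233.1 an Mcm6 gene lay before a PCNA gene at 12008600 to 12032128 and after one at 19120638 to 19141087. On NW_021837267.1 an APC7 row and a meiotic nuclear division protein 1 row were neighbours, 4208 bases apart at the first place and 4120 bases apart at the second. The first pair had log2 fold changes of 0.04 and 0.29, and the second pair of -0.88 and -0.13. The genome build of these positions is not stated in the sources.

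Genes of the same processes outside the rule were read from lists of names. None of them passed an adjusted p of 0.05 by edgeR or DESeq2. Of 38 tested DNA synthesis genes 14 lay above 0 and 24 below, and their median log2 fold change was -0.04. By edgeR 1 of them had an unadjusted p below 0.05, thymidylate synthase (LOC109424870), which makes the thymine nucleotide for DNA, at 28.6, 29.6 and 27.3 CPM in OE, against 31.2, 35.1 and 33.7 CPM in NC. A second thymidylate synthase row, LOC115258025, had 46.7, 64.5 and 51.2 CPM in OE, against 46.4, 52.4 and 52.7 CPM in NC, a log2 fold change of 0.10 ± 0.12 (SE). Of 25 spindle checkpoint and kinetochore genes 13 lay above 0 and 12 below, with a median of 0.00. The 1 below that p was the checkpoint kinase BUB1 (LOC109402802), with 38.9, 42.0 and 43.0 CPM in OE, against 45.8, 51.0 and 47.2 CPM in NC. Of 30 chromosome structure genes 10 lay above 0 and 20 below, with a median of -0.02. The 3 at an unadjusted p under 0.05 were condensin subunit 2 and the SMC5 and SMC6 genes of the repair complex, all lower in OE, with log2 fold changes of -0.31 ± 0.12, -0.15 ± 0.06 and -0.15 ± 0.07 (SE) in LOC115254135, LOC109408341 and LOC109405037. None of their other rows had an unadjusted p under 0.05. Both other condensin subunit 2 rows (LOC109401544 and LOC109412611) lay at -0.01, the other SMC5 row (LOC109426529) at 0.20, and the other SMC6 rows at -0.01 (LOC109405034) and 0.19 (LOC109622043). Of 13 genes of CDK regulation and E2F 3 lay above 0 and 10 below, with a median of -0.06. The 1 at an unadjusted p under 0.05 (0.00686; adjusted p 0.963 by edgeR) was an E2f1 row, LOC109400190, an activator of S-phase genes. It had 380, 407 and 370 CPM in OE, against 425, 473 and 441 CPM in NC, and all OE libraries lay below all NC libraries. The other E2f1 row, LOC109427092, had 549, 562 and 567 CPM in OE, against 553, 547 and 535 CPM in NC. Summed over both, E2f1 differed by -0.07 ± 0.04 on the log2 scale (SE; adjusted p 0.951, edgeR). These were 6 genes of the 106 tested in the 4 lists together. Over all genes tested 4.92% had an unadjusted p under 0.05 by edgeR, 2.42% higher and 2.50% lower in OE. All 6 were lower in OE, a direction read after the values were seen, and the lists were not tested as sets.

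RNA of other cell types was present in both groups. The 84 muscle genes summed to 3024 to 3120 CPM in OE and to 3231 to 3294 CPM in NC, without overlap. Of the 59 tested, 8 were lower and 1 higher in OE at an unadjusted p under 0.05 by edgeR. Over all genes tested these shares were 2.50% and 2.42%. At an adjusted p of 0.05 edgeR called 0 of the 59 and DESeq2 called 2, where DESeq2 called 0.0652% of the genes it tested. The 19 fat body genes summed to 156 to 214 CPM in OE and to 129 to 160 CPM in NC, with the highest value in OE1. The 27 eggshell and follicle cell genes summed to 6201 to 6703 CPM in OE and to 6307 to 6460 CPM in NC, and the 103 hemocyte genes to 654 to 662 CPM in OE and to 640 to 685 CPM in NC. No gene of these lists was at 0 in every library, although 28 muscle, 13 fat body, 8 eggshell and 54 hemocyte genes stayed under 1 CPM in all. Their part in the values above was not tested.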

How the data were processed

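RNA-seq was measured in 6 ovary libraries, 3 OE and 3 NC, grouped by their titles. The values are estimated counts, deposited by the authors in 1 table for all genes; the header names no scaling, and library totals differ. The submitters' processing notes name HISAT and Bowtie2; the counter, build and strand setting are not stated there or in the file. Estimated counts were rounded to whole numbers, filtered with filterByExpr and scaled by TMM, and tested with edgeR 4.0.16 (R 4.3.3) quasi-likelihood F tests of OE against NC, with no covariate, over 15540 genes with Benjamini-Hochberg adjustment at 0.05. Standard errors were taken as |log2 fold change|/√F, and 95% intervals use the fit's degrees of freedom. CPM use unrounded estimates. SDs on the log2 CPM scale use a pseudocount of 0.5 CPM. A value was called whole within 0.001. DESeq2 1.42.0 was an alternative.

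The genes, lists, role classes and naming rule were chosen with earlier results of these data known. Named genes are those at an unadjusted p under 0.05, those called by DESeq2 (none), the gene with the most counts per class, and, by the copy with the most counts, CDK1, CDK2, cyclins A, B, B3 and D, polo, aurora, PCNA, geminin and MCM genes; others, such as partners and copies, were named after their values were seen. In simulated counts for the 15540 genes with 200 changed, 34% were recovered at 1.5-fold, 67% at 2-fold and 89% at 4-fold, with 8, 9 and 17 calls among unchanged genes. Sequences were not used here.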

Additional observations from a re-analysis of the deposited data

How the results depend on the processing

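No gene of the group was called under any of the 13 alternatives, DESeq2 included. The count at an unadjusted p under 0.05 was 3, and 1 to 7 when 1 library was left out. The count without overlap was 3. It was 5 with library size alone. With copies summed after removing "-like" (an alternative chosen after seeing the data) it was 5 of 74 summed features. It was 10 to 22 when 1 library was left out, where fewer libraries overlap less by construction. In the main fit 10.4% of all genes tested did not overlap. That share was not computed for the other settings, nor was the share under that p with 1 library left out. The median log2 fold change of -0.0073 ran from -0.033 to 0.0023 when 1 library was left out.

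Libraries with the same number did not deviate together (correlations -0.01, 0.04 and -0.01). A replicate block gave 0 calls and 2 genes at an unadjusted p under 0.05.

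Of 403 values for the 31 named genes 44 changed direction, 33 of them with 1 library left out, and no such gene had a log2 fold change over 0.138 in size. With copies summed over equal descriptions, the log2 fold changes were 0.0432 for PCNA (LOC109428274), 0.0096 for aurora kinase C (LOC109621876), 0.0078 for CDK2 (LOC115266510) and 0.0398 for cyclin B (LOC115270215). With "-like" also removed they were 0.0431, 0.0096, 0.0078 and 0.0397 for these, -0.0962 for Mcm2 (LOC109398867), -0.0467 for aurora kinase B (LOC109423204) and -0.0359 for MCM4 (LOC115270238). These sums include the other copies by construction.

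With 1 library left out, the log2 fold changes of the named genes that changed direction ran as follows, and the cause was not tested. Among the kinases they ran from -0.0135 to 0.113 for CDK1 (LOC109429567), -0.208 to 0.0053 for CDK2 (LOC115266510), -0.0145 to 0.0502 for polo (LOC109429192), -0.0421 to 0.0264 for aurora kinase C (LOC109621876), -0.110 to 0.164 for aurora kinase B (LOC109423204) and -0.160 to 0.0165 for its -like gene (LOC115267000). Among the cyclins they ran from -0.0701 to 0.0153 for cyclin A (LOC109426019), -0.160 to 0.0558 for cyclin-A-like (LOC115268031), -0.0445 to 0.0427 for cyclin B (LOC115270215), -0.0662 to 0.0018 for cyclin B3 (LOC109415630) and -0.0219 to 0.0772 for cyclin D2-like (LOC109428421). Among the replication genes they ran from -0.124 to 0.0266 for Mcm3 (LOC109405758), -0.104 to 0.160 for MCM4-like (LOC115270238), -0.0544 to 0.293 for Mcm6 (LOC109428276), -0.104 to 0.142 for Mcm6-like (LOC109427956), -0.110 to 0.0179 for Mcm7 (LOC109621711), -0.0729 to 0.0032 for geminin (LOC109422123) and -0.158 to 0.0599 for PCNA (LOC109428274). Among the named genes that kept their direction, values moved by over 1.5 times in Mcm2 (LOC109417346, -0.335 to -0.108), Mcm5 (LOC109404030, -0.139 to -0.0335), MCM4 (LOC109430667, -0.109 to -0.0259), Mcm2-like (LOC109398867, 0.0848 to 0.182), Cdt1 (LOC109426843, -0.0538 to -0.0021), MARF1 (LOC109419060, 0.00044 to 0.134), CDC27 (LOC109407831, -0.156 to -0.0262), CDC5-like (LOC109406867, 0.0166 to 0.0470), CDK12 (LOC109623260, -0.0971 to -0.0056), cyclin D2 (LOC109426400, 0.0560 to 0.141) and cyclin-L1-like (LOC115259611, -0.398 to -0.198). In simulated counts 34% of genes changed 1.5-fold were recovered, drawn from all 15540 genes tested. The genes described here had a smaller median SE (0.101 against 0.136 over all genes tested), so their own recovery was not measured. Smaller differences were not simulated.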
